A study of Mus musculus with 55 samples.

Results

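State M is 1 of 24 state letters in a segmentation of the autosomes of wild-type mouse islets, in bins of 200 bp, from maps of histone marks, RNA polymerase II and DNA methylation of the islets. Its members are the segments that carry the letter M, and the study named the state bivalent with high H3K27me3. There were 16394 such segments among 1653154 in all, and they covered 30.34 Mb, or 1.233% of the segmented genome. The most upstream start of 1607 genes lay in state M, of 28881 protein-coding, lincRNA and antisense genes with a state at their start. The state of a bin was fixed on chromatin of wild-type islets alone, so RNA levels in the knockout were not used to choose these genes.

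Bivalent chromatin carries a mark of poised or active promoters, H3K4me3, and a mark of silencing, H3K27me3, at the same place. H3K27me3 is laid down by Polycomb repressive complex 2 (PRC2), in which EED binds the mark and is needed for the activity of the methyltransferase. In differentiated cells such regions are known for the start sites of developmental regulators and of genes that belong to other lineages, which stay off but open to activation.

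RNA of whole isolated islets was sequenced from male mice of strain C57B6/J. At 8 weeks of age there were 3 libraries each of wild type, of mice labelled heterozygous, and of βEedKO mice, labelled Eed -/-. At 25 weeks there were 3 wild-type, 2 heterozygous and 2 βEedKO libraries. In βEedKO mice the RIP-Cre transgene, driven by an insulin promoter, removed both floxed copies of Eed from β cells, and the other cells of the islet kept it. The labels do not say whether wild-type mice carried the transgene or a floxed allele. A library held the islets of 1 to 2 animals, but each βEedKO library at 25 weeks held those of at least 4. The segmentation averaged its replicates, so it has no spread between animals.

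Library totals ran from 4645393 to 22925359 counted reads, and levels are given below as CPM, the reads of a gene relative to the TMM-scaled library size. CPM are not per length and are compared between libraries only. Eed itself, whose start lay in active state A, had 23.2 to 33.8 CPM in wild type and 13.6 to 15.1 CPM in βEedKO at 8 weeks, and 19.3 to 28.6 against 13.7 to 15.3 CPM at 25 weeks. The groups did not overlap at either age, but neither fall passed the test (adjusted p = 0.0881 and 0.142, edgeR). Summed over 7 β cell markers (Ins1, Ins2, Mafa, Ucn3, Slc2a2, Pdx1 and Nkx6-1), the βEedKO libraries of 25 weeks held 11700 and 14300 CPM against 111000 to 191000 in wild type. Fewer cells of a type and less RNA per cell cannot be told apart in such libraries. Summed over 5 acinar markers, these βEedKO libraries held 9160 and 290000 CPM against 23100 to 166000 in wild type, and over 4 duct markers 414 and 505 against 32.2 to 68.7. The 4 stellate or fibroblast markers summed to 168 and 263 against 65.5 to 93.7 CPM. The duct markers Krt19 and Spp1 start in bivalent state K, and Sox9 and Cftr in bivalent state L. Of the stellate or fibroblast markers, Col1a1, Pdgfrb and Dcn start in state M and Col3a1 in Polycomb state N. More of these cells and more RNA of these genes per cell cannot be told apart either. The part of these cells in the results below was not tested.

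The 250 bases upstream of 6 state M starts are shown 5′ to 3′ along the gene's strand, on GRCm38, with each CpG in capitals. CpG-rich starts are the usual seats of bivalent chromatin. Cck is the locus that the study used as its example of the state. Among called genes with at least 1 CPM in βEedKO, Six3 had, after Cck, the largest log2 fold change at 25 weeks, and Slc17a6 the largest at 8 weeks. This is not a ranking by level. Gm14424 is a silent transcript in the widest segment. Hoxb1 and Hoxb13, chosen after their values were seen, lie in the same gene cluster and differed in βEedKO.
Cck: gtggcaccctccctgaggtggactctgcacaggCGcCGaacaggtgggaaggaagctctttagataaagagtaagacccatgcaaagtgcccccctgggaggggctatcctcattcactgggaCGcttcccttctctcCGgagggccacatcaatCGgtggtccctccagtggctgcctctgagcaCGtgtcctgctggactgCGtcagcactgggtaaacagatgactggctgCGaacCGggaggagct
Six3: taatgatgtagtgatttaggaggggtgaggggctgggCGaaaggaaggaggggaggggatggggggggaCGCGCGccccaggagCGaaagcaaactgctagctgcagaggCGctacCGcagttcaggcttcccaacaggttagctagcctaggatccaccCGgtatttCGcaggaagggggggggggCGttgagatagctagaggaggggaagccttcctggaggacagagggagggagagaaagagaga
Slc17a6: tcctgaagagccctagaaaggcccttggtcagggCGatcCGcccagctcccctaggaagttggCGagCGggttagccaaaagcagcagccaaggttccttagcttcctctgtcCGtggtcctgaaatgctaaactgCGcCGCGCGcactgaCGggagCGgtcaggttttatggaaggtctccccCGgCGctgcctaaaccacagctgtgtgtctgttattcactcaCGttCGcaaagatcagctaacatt
Gm14424: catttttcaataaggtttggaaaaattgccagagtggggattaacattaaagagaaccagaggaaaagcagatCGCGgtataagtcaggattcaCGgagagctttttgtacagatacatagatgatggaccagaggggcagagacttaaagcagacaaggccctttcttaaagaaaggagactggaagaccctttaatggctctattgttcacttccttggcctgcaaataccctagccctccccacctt
Hoxb1: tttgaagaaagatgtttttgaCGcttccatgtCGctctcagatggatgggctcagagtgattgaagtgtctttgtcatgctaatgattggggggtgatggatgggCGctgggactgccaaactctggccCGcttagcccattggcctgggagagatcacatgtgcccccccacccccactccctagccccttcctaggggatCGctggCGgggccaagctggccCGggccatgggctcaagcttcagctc
Hoxb13: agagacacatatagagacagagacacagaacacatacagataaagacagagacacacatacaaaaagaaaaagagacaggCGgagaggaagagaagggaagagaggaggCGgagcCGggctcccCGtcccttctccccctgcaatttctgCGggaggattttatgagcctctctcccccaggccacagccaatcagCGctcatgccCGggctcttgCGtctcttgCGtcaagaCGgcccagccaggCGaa
These windows lie at chr9:121495695-121495944 on the minus strand (Cck), chr17:85613358-85613607 (Six3), chr7:51621756-51622005 (Slc17a6), chr2:74752434-74752683 (Gm14424), chr11:96365502-96365751 (Hoxb1) and chr11:96194066-96194315 (Hoxb13), the last 5 on the plus strand. All 250 bases of each were in state M. The Cck window held 9 CpG, that of Six3 10, of Slc17a6 15, of Hoxb13 11 and of Hoxb1 7. The window of Gm14424 held 3.

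Over all 1607 state M starts the median was 7 CpG in these 250 bases (quartiles 4 and 12). It was 11 in state L, the neighbouring bivalent state with high H3K4me3, 19 in active state A, 3 in Polycomb state N and 6 over all 28881 starts. The TATA motif, read as the letters TATAAA on the gene's strand, was in 6.1% of the state M windows and in 7.68% of all. None of the 6 windows above held it, which says only that these letters are not there.

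State M segments were short as a rule, with a tail of broad domains. Their median width was 1200 bp (quartiles 600 and 2200 bp) and the widest measured 60600 bp. A single bin made up 1672 segments (10.2%). Broad segments, taken as unbroken runs of at least 5 kb, numbered 1075. They were 6.56% of the segments and held 32.3% of the state M bases, 9.81 Mb. With a limit of 10 kb there were 284, and 57 reached 20 kb. At the 5 kb limit the count is smooth, with 63 segments of 4800 bp just outside and 60 of exactly 5000 bp just inside. When segments separated by up to 1 kb were joined, 12765 domains remained, of which 1455 were at least 5 kb and the longest 149200 bp.

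**Figure D1:**
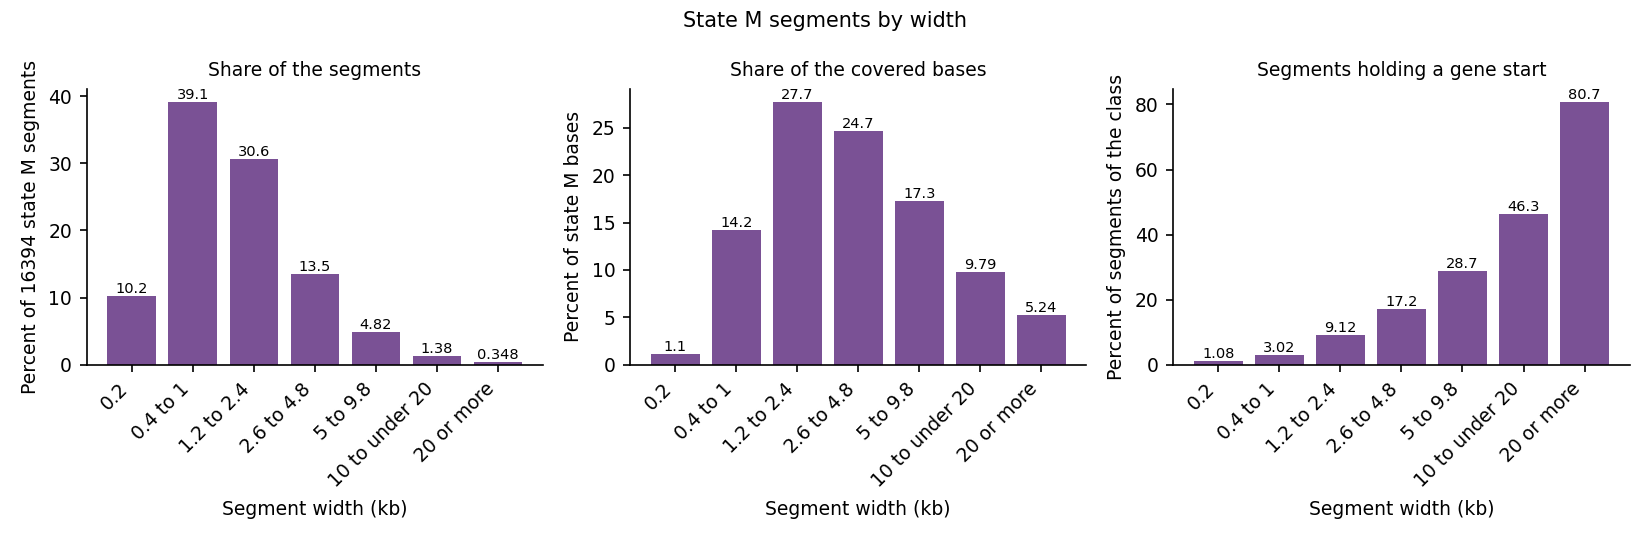
State M segments by width class in kb: the share of the 16394 segments (left, percent), the share of the state M bases (middle, percent) and the percent of the segments of each class that hold a gene start (right). The share with a start climbs from 1.08% of one-bin segments to 80.7% of those of 20 kb or more.

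Wider segments held gene starts more often. A start lay in 1.08% of one-bin segments, 28.7% of those of 5 to under 10 kb, 46.3% of those of 10 to under 20 kb and 80.7% (46 of 57) of those of at least 20 kb. A wider segment also has more bins in which a start can fall, and no test was made of this share. In all, 1430 segments (8.7%) held a start, with a median width of 2600 bp against 1000 bp for the rest, and 147 held more than 1. Segments with a start had 2.35 CpG per 100 bp and those without 1.59. The state as a whole had 1.75, between 3.43 in state L and 0.91 in state N.

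State M mostly bordered Polycomb chromatin. Of 32703 segment ends with a neighbouring segment, 61.4% met state N, 19.0% state L and 9.7% the bivalent state K, while 7 ends met active state A. At least 1 end met state L in 33.1% of the one-bin segments and 49.1% of those of at least 20 kb. Along the genes that start in it, state M often gave way: it was the main state over the gene body of 592 of the 1607 genes (36.8%), whereas state N was for 489 (30.4%) and state O, also a Polycomb state, for 281 (17.5%).

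Many of the widest segments lay in the Hox clusters, arrays of homeobox genes that set position along the body axis. The widest, chr2:74705601-74766200, spans 60.6 kb with the starts of Hoxd1, Hoxd3, Hoxd4 and 4 non-coding genes. Next came a segment of 56.6 kb with Hotair and Hoxc10 to Hoxc13 on chromosome 15, and 1 of 47.8 kb with Evx2 and Hoxd10 to Hoxd13 on chromosome 2. The fourth, of 45.6 kb on chromosome 4, held no annotated start. A segment of 42.6 kb held 8 starts, those of Hoxa2 and Hoxa4 among them, and 1 of 40.2 kb held Vax2, a homeobox gene of the eye, with its antisense partner. Nkx2-1, a regulator of lung and thyroid identity, started in a segment of 36.4 kb, and Otx2, of the forebrain and eye, in 1 of 29.6 kb.

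Of the 1607 genes, 1496 were in the count table and 111 were not. They comprised 1154 protein-coding, 168 lincRNA and 174 antisense genes. In wild-type islets 341 (22.8%) averaged at least 1 CPM at 25 weeks and 356 at 8 weeks. In βEedKO these numbers were 711 (47.5%) and 454 (30.3%). Of all counted genes with a state, 51.6% averaged at least 1 CPM in wild type and 56.5% in βEedKO at 25 weeks. At 8 weeks these shares were 51.6% and 53.2%. In state L they were 59.6% and 74.8% at 25 weeks, and 60.8% and 67.5% at 8 weeks. The differences between states were not tested. Per library, 299 to 376 of the state M genes reached 1 CPM in wild type at 25 weeks, 304 and 248 in the heterozygous libraries and 692 and 707 in βEedKO. At 8 weeks the ranges were 265 to 388, 279 to 341 and 399 to 434. Every βEedKO library thus stood above every wild-type and heterozygous library of its age.

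**Figure D2:**
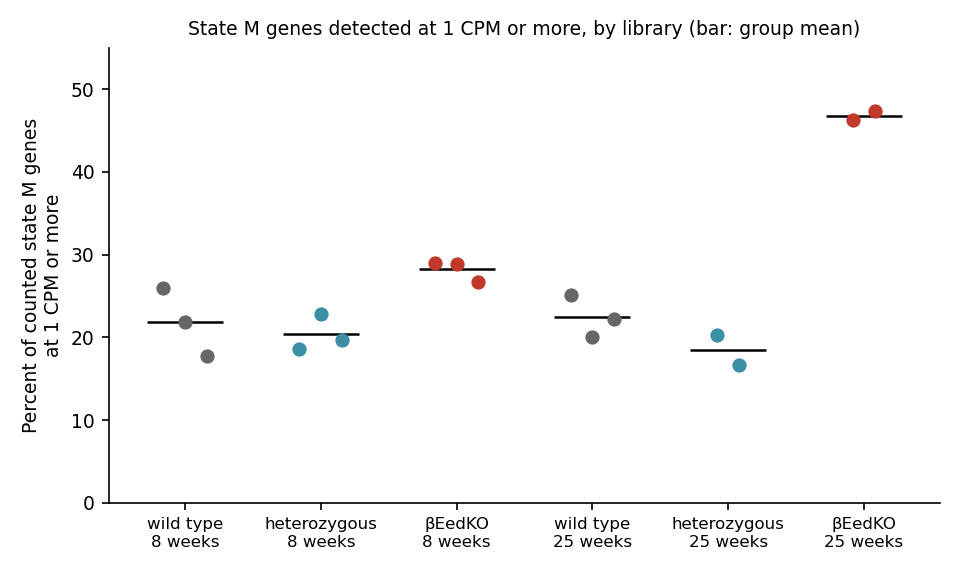
Percent of the 1496 counted state M genes at 1 CPM or more (vertical axis) in each of the 16 libraries; points are libraries and horizontal lines are group means. Both βEedKO libraries of 25 weeks, at 46.3 and 47.3%, stand apart from all others, which lie between 16.6 and 29.0%.

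To ask which state M genes were derepressed, βEedKO and wild type were compared at each age in 1 edgeR quasi-likelihood fit of 11 libraries across all genes, and a gene was called at a Benjamini-Hochberg adjusted p under 0.05. Only 848 of the 1496 genes (56.7%) had enough reads to be tested, and 394 of these had fewer than 2 wild-type libraries with 10 reads, so that many could pass only through βEedKO. At 25 weeks 225 state M genes were higher in βEedKO and 1 was lower. The background over all 18685 genes tested was 4.58% called higher and 2.02% called lower. The 225 were 15.0% of the counted and 26.5% of the tested state M genes, and 26.3% of all genes called higher at this age. Among all genes with a state, 3.14% of the counted and 5.02% of the tested were called higher.

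The median log2 fold change at 25 weeks was 2.11 over the tested state M genes and 0.03 over all genes tested. With no filter it was 2.30 over 1377 state M genes with a read and 0.14 over 30748 genes. Without any test, the mean of βEedKO was above that of wild type for 1233 of the 1496 genes (82.4%) and below it for 113, and 150 had no read in either. All βEedKO libraries lay above all wild-type libraries for 811 genes (54.2%). This held for 12.6% of all counted genes, 18.9% of those with a state and 49.7% of those in state L. For comparison, 354 of 2863 genes that start in state L (12.4%) and 36 of 2080 in state N (1.73%) were called higher, and 36 and 0 lower. The differences between states were not tested.

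With the replicate number as a block the count at 25 weeks was 115 higher and 3 lower. That fit rests at 25 weeks on the pairs of replicates 2 and 3. A call lost with it is thus not shown to be absent. Leaving out βEedKO replicate 2 or 3 left 112 or 87 genes higher, and leaving out wild-type replicate 3 or 4 at 25 weeks left 104 or 109.

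**Figure D3:**
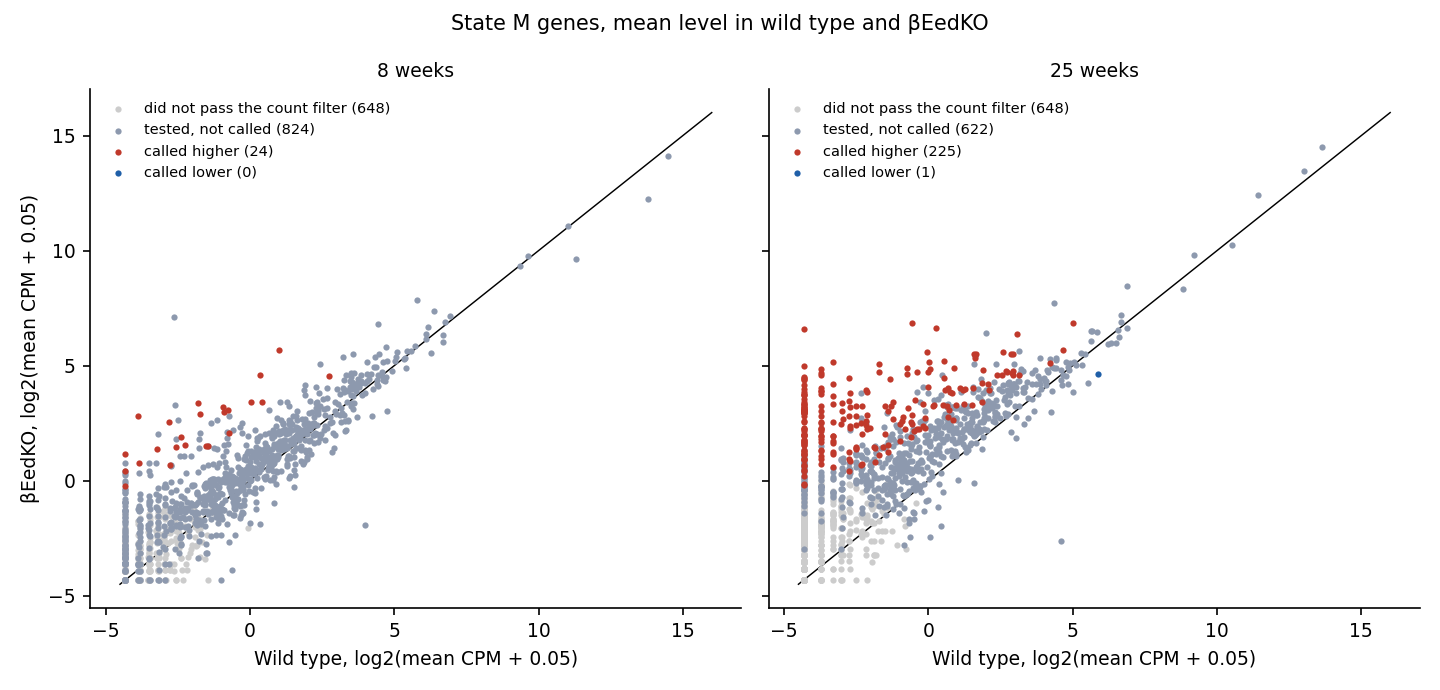
Mean level of each counted state M gene in wild type (horizontal, log2 of CPM + 0.05) and βEedKO (vertical, same scale) at 8 and 25 weeks, coloured by call; the line marks equal levels. At 25 weeks 225 genes are called higher and 1 lower, and 67 of the 225 had no wild-type read at that age, the column at the left edge.

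Most of the 225 were near zero in wild type: 180 averaged under 1 CPM there and 67 had no read in any wild-type library of that age. Their median level was 0.0992 CPM in wild type and 7.99 CPM in βEedKO (quartiles 3.76 and 15.5). Only 3 exceeded 100 CPM in βEedKO: Miat, a long non-coding RNA, Dcn, and Cartpt, a neuropeptide precursor of brain and gut. Both βEedKO libraries were above all wild-type libraries for each of the 225. The genes were called on these same libraries, so this adds no support to the calls. Of the 225, 141 were higher in βEedKO replicate 3 than in replicate 2. The called genes were 211 protein-coding, 7 lincRNA and 7 antisense genes.

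Cck encodes cholecystokinin, a peptide of gut endocrine cells and neurons. Its gene (ENSMUSG00000032532.6) lies on the minus strand of chromosome 9 from 121489824 to 121495694, and its start is in a segment of 4.8 kb, just under the limit for a broad one. It had no read in the wild-type libraries of 25 weeks and 72.5 and 119 CPM in βEedKO. At 8 weeks wild type held 1.85, 0.0594 and 0.162 CPM and βEedKO 0.607, 3.51 and 2.21 CPM. The groups thus overlapped at 8 weeks and were far apart at 25 weeks. The level at 25 weeks was at least 973-fold higher in βEedKO, where the wild-type level was set to the 3 reads that a count of 0 allows over that group (0.0982 CPM). This and the other lower bounds cover counting error only. The adjusted p was 0.00476 at 25 weeks and 0.792 at 8 weeks in edgeR, and 0.0560 at 25 weeks with the block.

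The other large rises were genes of other tissues, most of them transcription factors. Six3, a homeobox gene of the eye and forebrain, had 0 reads in all 6 wild-type libraries, 34.9 and 29.0 CPM in βEedKO at 25 weeks and 0.706 to 1.03 CPM at 8 weeks. It was called at both ages (adjusted p = 0.000443 and 0.0188, edgeR) and was at least 325-fold and at least 14.0-fold higher. Hoxa10, of the posterior body axis, had no wild-type read at 25 weeks and 23.8 and 21.8 CPM in βEedKO (adjusted p = 0.00820); DESeq2 did not call it. Tfap2b, a factor of neural crest and kidney, rose to 25.3 and 18.8 CPM, and Slc32a1, the vesicular transporter of GABA and glycine, to 23.6 and 19.3 CPM, both from 0. Sim2 (18 and 23.7 CPM), Hoxb13 (16.9 and 18.7) and Sp8 (17.5 and 11.2) also had no wild-type read at that age. Vax2os, the antisense partner of Vax2, had 13.5 and 13.9 CPM from 0. The kit does not mark strand, so reads of Vax2os and Vax2 cannot be told apart, and the same holds for Six3 and Slc32a1 and their annotated antisense genes.

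The share of called genes was higher in broad segments at 25 weeks. Of 223 genes in segments of at least 10 kb, 78 (35.0%) were called higher, and of 246 in segments of 5 to under 10 kb, 44 (17.9%). Below 5 kb it was 103 of 1027 (10.0%), and from the widest to the narrowest of 3 classes there 8.74, 10.3 and 11.9%. With the block 44, 19 and 52 genes were called at 10 kb or more, at 5 to under 10 kb and below 5 kb. Detection in wild type at 1 CPM went the other way, with 8.07% of the genes in segments of at least 10 kb against 29.0% in those of up to 1 kb. In βEedKO it was 52.0% and 48.7%. The part of the lower wild-type levels in the share of calls was not tested. Among protein-coding genes alone the share called was 32.9% (112 of 340) in broad segments and 12.2% (99 of 814) in the rest.

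**Figure D4:**
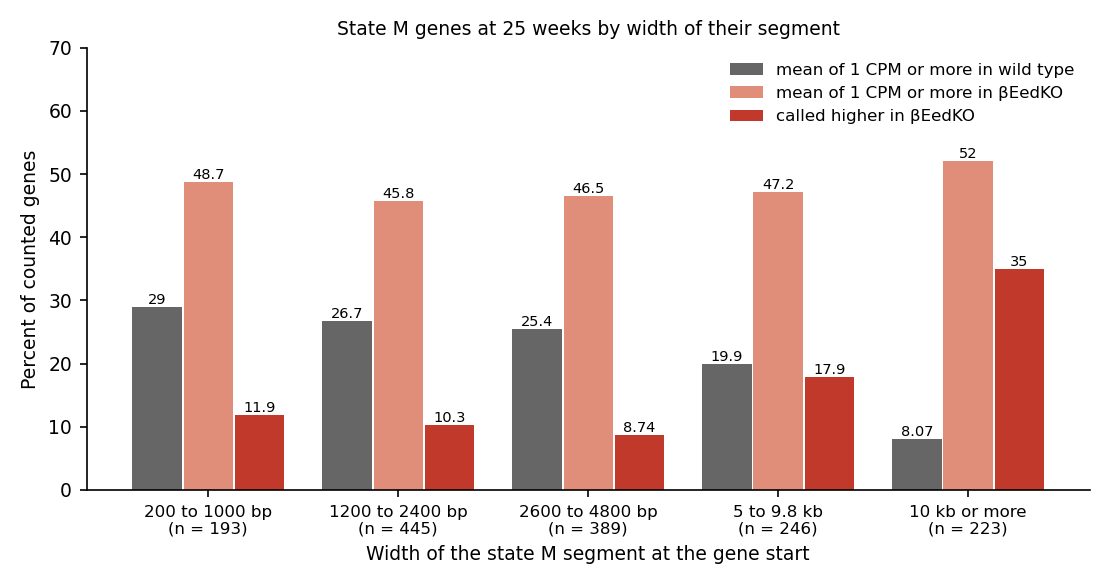
Percent of counted state M genes (vertical axis) that average 1 CPM or more in wild type, do so in βEedKO, or were called higher in βEedKO, all at 25 weeks, by the width of the segment at their start. In segments of 10 kb or more 8.07% reached 1 CPM in wild type, 52.0% did in βEedKO and 35.0% were called.

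The surroundings of the segment differed too. Of 635 genes whose segment touched state L, 123 (19.4%) were called higher at 25 weeks, and of 598 with state N on both sides, 59 (9.87%). By CpG in the upstream window the share was 12.1% with up to 3, 11.7% with 4 to 6, 15.5% with 7 to 11 and 19.5% with 12 or more. These are shares of all counted genes of a class, with no test between classes. Neighbours within a segment were not all called. Of 126 segments with at least 2 counted starts, 8 had every gene called higher, 79 none and 39 some. In 35, a called gene lay beside a gene silent in both genotypes (under 1 CPM in every wild-type and βEedKO library of 25 weeks). A gene not called may have risen or lacked reads. Only 18 of 168 lincRNA and 31 of 174 antisense genes were tested. Hoxb3 and Hoxb4 make up a segment with none called, but Hoxb3 had 0 to 0.544 CPM in wild type and 1.87 and 2.78 CPM in βEedKO.

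The Hox clusters held segments with called and uncalled genes side by side. Of 39 protein-coding Hox genes with a state, 38 started in state M, in 16 segments, and 37 of them in segments of at least 5 kb. At 25 weeks 26 were called higher, and 37 had a higher mean in βEedKO. At 8 weeks Hoxd8 alone was called. Of all counted protein-coding state M genes, 18.3% were called higher at 25 weeks and 89.5% had a higher mean. In broad segments these shares were 32.9% and 91.2%. Genes of paralog groups 1 to 4, which are used toward the head, were called in 3 of 12 cases, against 10 of 11 in groups 5 to 8 and 13 of 15 in groups 9 to 13. With the block the calls were 2, 5 and 10. The difference between these groups was not tested. The segment of 42.6 kb with Hoxa2 and Hoxa4 had no call among its 8 counted starts. Of these, Hoxa2 had 0 to 0.220 CPM in wild type and 1.12 and 1.78 CPM in βEedKO (adjusted p = 0.0929 in edgeR and 0.0599 in DESeq2). Hoxb1 had no read in any wild-type or βEedKO library, while Hoxb13, in a segment of 33.8 kb of the same cluster, was at least 181-fold higher in βEedKO.

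**Figure D5:**
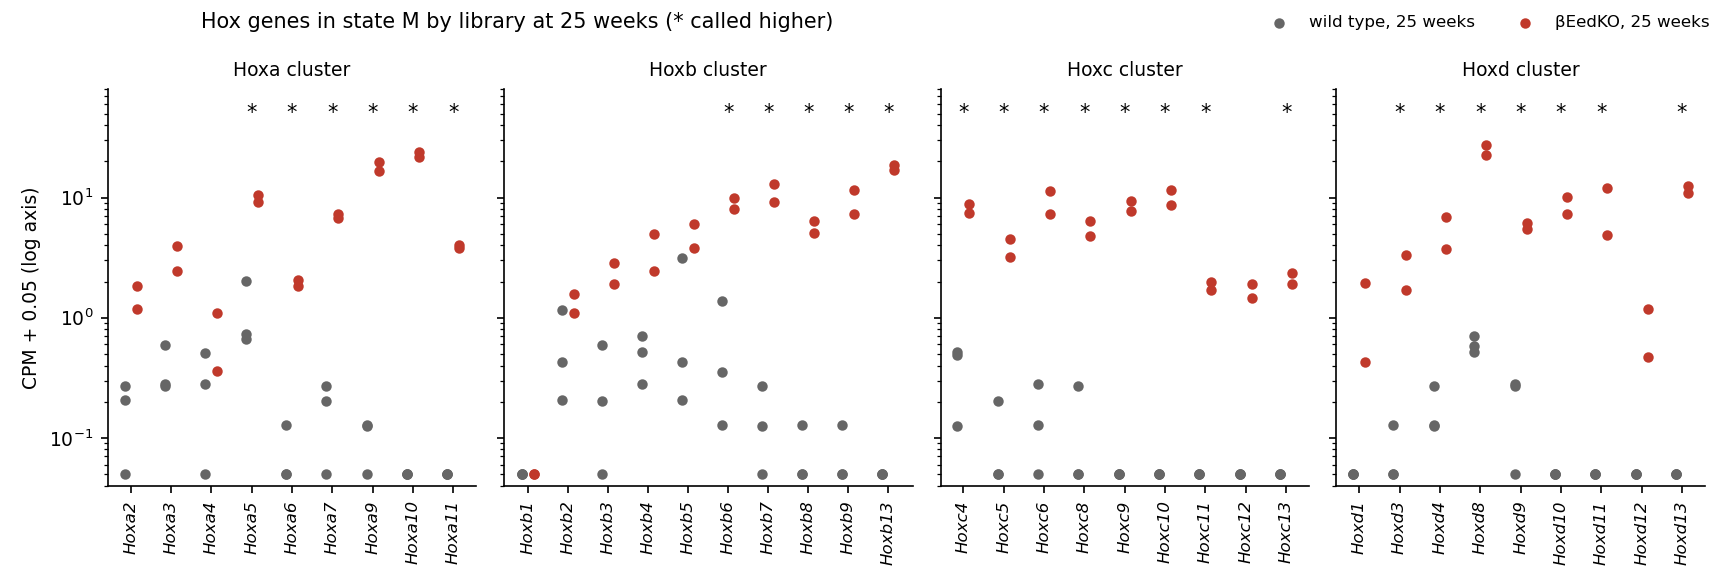
CPM + 0.05 (log axis) of 37 Hox genes that start in state M, in each wild-type and βEedKO library of 25 weeks, ordered by cluster and paralog number; an asterisk marks a gene called higher. In the Hoxa and Hoxb clusters the called genes begin at Hoxa5 and Hoxb6, and Hoxb1 is at 0 in all 5 libraries.

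Among Hox genes with reads in wild type, Hoxd8 had 0.660, 0.533 and 0.466 CPM in wild type at 25 weeks and 22.4 and 27.1 CPM in βEedKO (log2 fold change 5.51 ± 0.44 SE, adjusted p = 0.000170, edgeR). At 8 weeks it had 0.617, 0.713 and 0.325 against 5.46, 2.90 and 4.24 CPM (adjusted p = 0.0103). Hoxa9 held 0 to 0.0777 CPM in wild type at 25 weeks and 16.5 and 19.6 CPM in βEedKO. Hoxd13, from the other end of its cluster than Hoxd1, had no wild-type read at that age and 10.9 and 12.4 CPM, and Hoxc10 none and 8.61 and 11.4 CPM. By contrast Hoxb2 had 0.155 to 1.10 CPM in wild type and 1.05 and 1.51 CPM in βEedKO, so that its groups overlapped (adjusted p = 0.518). Reads of Hoxd3, which overlaps Hoxd4 and non-coding genes, may be shared with them.

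Other families of developmental regulators that start in state M were called in part. Not every member had enough reads: 5 of 11 Nkx, 7 of 14 forkhead, 5 of 6 Sox and 10 of 21 bHLH genes were tested. At 25 weeks the mean was higher in βEedKO for 10, 13, 6 and 19 of these, against 89.5% of all protein-coding state M genes. Of those protein-coding genes 18.3% were called higher, the share to set beside the family counts here and below. The families were chosen with earlier results known, and members in other states were also called. Of 4 counted sine oculis-related and Eya genes 3 were called higher at 25 weeks, among them Six3 and Six6. Six6, of the eye and pituitary, had 0 in wild type and 2.02 and 1.12 CPM in βEedKO. Of 5 Pax genes 3 were called. Pax3, of neural crest and muscle, had 0 in wild type and 11.4 and 10.1 CPM, Pax9, of thymus and teeth, 0 and 8.31 and 8.47 CPM, and Pax1, of the vertebral column, at most 0.0777 and 10.8 and 22.0 CPM. Of 11 Nkx genes 3 were called and 7 were silent in both genotypes. Nkx2-1 had 0 to 0.0762 CPM in wild type and 13.5 and 16.3 CPM in βEedKO, and Nkx2-5, of the heart, 0 and 8.31 and 17.9 CPM. Nkx2-3, of gut and spleen mesenchyme, was on in wild type at 1.71 to 3.08 CPM and reached 11.2 and 9.05 CPM.

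LIM homeobox genes, which pattern neurons and limbs, were called in 4 of 5 cases, Lhx5, Lhx8, Lhx9 and Lmx1a. Irx, Pitx, Barx, Barhl and Alx genes were called in 6 of 9, with Pitx1, of the hindlimb and pituitary, at 0 to 0.0762 CPM in wild type and 20.9 and 29.7 CPM in βEedKO. Of 6 Gata and Zic genes 5 were called. Zic1, of the dorsal neural tube, had at most 0.0762 CPM in wild type at both ages, 1.54, 1.88 and 1.59 CPM in βEedKO at 8 weeks and 30.4 and 27.9 CPM at 25 weeks. Gata3, of T cells and the ear, went from at most 0.0762 to 16.2 and 10.7 CPM. T-box genes were called in 4 of 7 cases, Dlx, Msx, Emx and Otx genes in 4 of 9, forkhead genes in 4 of 14 and Tfap2 genes in 3 of 4. Of 6 Sox genes only Sox1 was called, and of 21 bHLH genes Nhlh2, Tal1 and Tal2. Tal1, of blood stem cells, had 0.914 to 2.20 CPM in wild type and 21.1 and 22.3 CPM in βEedKO.

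Secreted signals were counted in the same way. Wnt ligands and antagonists had 1 called of 10 (Wnt10a), FGF ligands 1 of 7 (Fgf14) and Hedgehog genes 1 of 2 (Shh), while DESeq2 called 3, 2 and 1. None (0) of 6 BMP and TGF-β genes was called in edgeR (2 at an unadjusted p under 0.05, and 0 in DESeq2), although all 6 had a higher mean in βEedKO. Bmp3 had 5.26 to 10.4 CPM in wild type and 20.4 and 9.82 CPM in βEedKO, which overlap, and Bmp4 0.388 to 0.533 against 2.10 and 1.78 CPM (adjusted p = 0.344 and 0.118). Whether families differ in their share was not tested.

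Genes of neurons and synapses were counted beside the 15.0% called among all counted state M genes and 18.3% among the protein-coding ones. Of 9 neurotransmitter transporters 3 were called at 25 weeks, Slc32a1, Slc17a6 and Slc6a5, and 5 were silent in both genotypes. Slc17a6, the vesicular glutamate transporter of many projection neurons, had 0 to 0.220 CPM in wild type and 24.9 and 18.9 CPM in βEedKO at 25 weeks. Slc6a5, the glycine transporter of inhibitory neurons, had 0 to 0.152 CPM and 15.4 and 56.6 CPM. Of 12 ionotropic receptor subunits 3 were called, the glutamate receptors Gria1, Grin2b and Grin2d, and of 9 voltage-gated potassium channels 1, Kcns3. Of 16 neuropeptide and peptide hormone genes only Cck and Cartpt were called. Cartpt had 0.621 to 1.54 CPM in wild type at 25 weeks and 87.6 and 113 CPM in βEedKO, and 0.704 to 2.08 against 7.28 to 14.2 CPM at 8 weeks (adjusted p = 0.000170 and 0.0169, edgeR). Of 11 protocadherins Pcdhb2 and Pcdhb6 were called, whose reads may be shared with near-identical neighbours.

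Collagens were called in 5 of 18 cases, among them Col1a1, Col6a5, Col18a1 and Col24a1. Col1a1, which is also 1 of the 4 stellate or fibroblast markers, had 6.76 to 8.69 CPM in wild type at 25 weeks and 29.2 and 25.0 CPM in βEedKO (adjusted p = 0.0478). Dcn, another of these markers with a start in state M, had 19.6 to 51.9 CPM and 154 and 80.7 CPM (adjusted p = 0.0352). The remaining markers of this list are Pdgfrb, which also starts in state M, and Col3a1, in state N. Neither was called at 25 weeks, with log2 fold changes of 0.528 and 0.945 (adjusted p = 0.545 and 0.156, edgeR). The part of stellate cells or fibroblasts in the collagen count was not tested. No cyclin-dependent kinase inhibitor (0 of 7) and no PRC2 subunit (0 of 10) in the lists started in state M.

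With the block the counts of called genes fell by more than 1.5 times in the lists that follow. They became 17 Hox genes, 1 of the sine oculis-related and Eya genes, 1 LIM, 2 Irx, Pitx, Barx, Barhl and Alx, 3 Gata and Zic, 1 Dlx, Msx, Emx and Otx, 2 forkhead and 1 Tfap2 gene, 0 Wnt and Hedgehog genes, 1 ionotropic receptor subunit, 1 neuropeptide gene, 0 protocadherins and 2 collagens. Without strand, reads of Pitx1, Pax9, Gata3, Lhx5, Shh, Six6, Fgf14, Grin2b, Grin2d, Col24a1, Bmp4 and Tchh, too, cannot be told apart from those of genes that overlap them on the other strand.

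Of the 64 calls at 25 weeks for genes chosen by the naming rule, 30 were lost with the block and 33 in at least 1 of the 11 fits without a library. Those of Six3, Tfap2b, Slc32a1, Sim2, Hoxb13, Sp8 and Vax2os were kept in all 11 and with the block. Of the genes named above, Cck, Lhx9 and Pax1 were lost with the block alone. Lhx8, Lmx1a, Six6, Hoxd3, Nkx2-3, Pcdhb2, Pcdhb6, Sox1, Col6a5, Col18a1, Col24a1, Grin2b, Grin2d, Shh and Wnt10a were lost with the block and without at least 1 library. Nhlh2, Kcns3 and Tal2 kept the call with the block and lost it without at least 1 library. Col1a1 too kept it with the block (adjusted p = 0.0270) and was lost without 7 of the 11 libraries, with an adjusted p of up to 0.208.

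Only Esm1, a secreted proteoglycan of endothelial cells, was called lower. It had 80.1, 56.0 and 39.8 CPM in wild type at 25 weeks and 21.2 and 27.9 CPM in βEedKO (log2 fold change -1.25 ± 0.30 SE, adjusted p = 0.0343, edgeR). The call was kept with the block (adjusted p = 0.0461), and was lost without any 1 of 6 libraries (log2 fold change -1.47 to -0.96 over the 11 fits) and with library size alone as scaling. Esm1 overlaps Gzmk, which lies on the other strand. The 4 endothelial markers Pecam1, Cdh5, Kdr and Plvap summed to 324 and 247 CPM in βEedKO against 249 to 290 in wild type. None (0) of the 4 was called (log2 fold change 0.71, 0.65, -0.65 and 0.21), and Kdr had 84.0 and 64.0 CPM against 89.8 to 132. Their part in the fall of Esm1 was not tested.

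At 8 weeks 24 state M genes were higher in βEedKO and none (0) lower, against a background of 0.428% and 0.00535% of the genes tested; 6 were lower at an unadjusted p under 0.05, and DESeq2 called 0 lower. The median log2 fold change over the tested state M genes was 0.66, against 0.00 over all genes tested. All βEedKO libraries lay above all wild-type libraries for 191 of the 1496 genes (12.8%). This held for 3.11% of all counted genes, 4.93% of those with a state and 16.0% (459 of 2863) of those in state L. The 24 called genes were 1.6% of the counted and 2.83% of the tested state M genes. In state L 46 genes were called higher, 1.61% of the counted and 1.92% of the tested. These differences between states were not tested. At this age the duct markers summed to 199 to 345 CPM in βEedKO and 85.7 to 255 in wild type, the stellate or fibroblast markers to 63.1 to 119 and 33.8 to 50.6, and the acinar markers to 18500 to 28500 and 21100 to 132000. The part of these cells in the calls was not tested. With the block none (0) of the 24 was called. All 24 kept a positive log2 fold change in it, and its median over the tested state M genes was 0.69. Without 1 library the count ran from 6 (without wild-type replicate 4) to 38 (without βEedKO replicate 1), and it was 14, 13, 13 and 11 without βEedKO replicate 4, βEedKO replicate 5, wild-type replicate 1 and wild-type replicate 3. It was 12 without βEedKO replicate 2 or 3 of 25 weeks, since all 11 libraries set the spread. DESeq2 called 78, among them all 24.

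Of the 9 neurotransmitter transporters, Slc17a6 and Slc6a5 were called at 8 weeks. Slc17a6 had no wild-type read and 3.69, 1.27 and 1.59 CPM in βEedKO, at least 37.5-fold higher (adjusted p = 0.0194), and the call was lost without any 1 of 6 libraries (highest adjusted p = 0.0840). Slc6a5 had 1 read in wild type and 0.654, 11.0 and 9.18 CPM in βEedKO, so that replicate 1 stood far below the other two (adjusted p = 0.0442). Gad2 and Iqsec3 were among the largest rises of that age and belong to no list. Gad2, an enzyme of GABA synthesis, split the same way as Slc6a5, with 0.0594 to 0.162 CPM in wild type and 0.700, 9.45 and 7.42 CPM in βEedKO (adjusted p = 0.0307). Iqsec3, a protein of inhibitory synapses, did as well, with 0.950 to 3.36 CPM and 8.41, 79.3 and 65.9 CPM (adjusted p = 0.0386). Slc6a5, Gad2 and Iqsec3 each lost the call without any 1 of 10 libraries, and their highest adjusted p was 0.249, 0.188 and 0.199.

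Other calls at 8 weeks had βEedKO libraries closer together. Astn1, a protein of neuronal migration, had 0.758 to 1.48 CPM in wild type and 22.2, 26.4 and 23.4 CPM in βEedKO (log2 fold change 4.29 ± 0.30 SE, adjusted p = 0.000351). Adgrb1, an adhesion receptor, had 0.325 to 0.713 CPM and 9.29, 8.99 and 8.83 CPM (4.25 ± 0.34 SE, adjusted p = 0.000646). These 2 were chosen after their values were seen. Sfmbt2, itself a Polycomb group gene, had 0.238 to 0.271 CPM and 8.87, 8.23 and 5.30 CPM (4.85 ± 0.52 SE, adjusted p = 0.00403), and kept its call without any 1 library. Tchh, a structural protein of hair follicles, had 0.0594 to 0.494 CPM and 6.35, 12 and 12.7 CPM, and Raet1e, a ligand of a natural killer cell receptor, 0.0542 to 0.185 CPM and 2.47, 4.67 and 3.88 CPM. Of the fits without a library, both lost the call in that without wild-type replicate 4 (adjusted p = 0.0790 and 0.0590), and with the block their adjusted p was 0.241 and 0.328. Reads of Raet1e may be shared with H60b and Raet1d, which overlap it on the same strand.

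The ages overlapped in their genes. Of the 24 genes called at 8 weeks, 23 were called at 25 weeks too; the exception was Barhl1, a homeobox gene of the hindbrain and inner ear. Of the 225 genes called at 25 weeks, 204 (90.7%) had a higher mean in βEedKO at 8 weeks as well, the same share as among all 856 genes called higher (90.7%). When the knockout effects of both ages were compared in edgeR, 3 state M genes differed, Barhl1, Gata2 and Gpr153, against a background of 0.198%. At an unadjusted p under 0.05 there were 158, DESeq2 called 51, and with the block there was none (0).

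Loss of 1 copy was examined in the heterozygous libraries. No state M gene (0) was called in edgeR at 8 or at 25 weeks among 852 in the fit, and the background was 0.0% at both ages. At an unadjusted p under 0.05 there were 116 state M genes (13.6%) at 8 weeks and 24 (2.82%) at 25 weeks. Over all 18828 genes there were 2743 (14.6%) and 210 (1.12%). DESeq2 called 16 and 0 state M genes. Its calls over all genes were not counted, so the 16 have no background beside them. The 225 genes called at 25 weeks summed to 188 and 239 CPM in the heterozygous libraries of that age and 220 to 302 in wild type. In βEedKO, where they were chosen, the sums were 2760 and 3200 CPM. At 8 weeks the sums were 602, 862 and 808 CPM in βEedKO, 203 to 400 in heterozygous and 288 to 325 in wild type. The comparison that chose the genes did not contrast these wild-type and βEedKO libraries. They were in the same fit, however, and helped to set its filter and spread.

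Many state M genes stayed under 1 CPM in βEedKO, the limit for silent here. A gene under it can still have risen. At 25 weeks 1233 of the 1496 genes had a higher mean in βEedKO, and 150 had no read in either genotype. Under 1 CPM in every wild-type and βEedKO library were 706 of 1496 genes (47.2%) at 25 weeks and 916 (61.2%) at 8 weeks, and 672 (44.9%) at both ages. At 0.5 CPM the numbers were 554 and 758. No read was found in any of the 16 libraries for 111 genes. Of the 706, 627 had too few reads to be tested and 1, the antisense gene Gm16758, was called higher all the same. Silence was found for 91.1% of the lincRNA, 83.3% of the antisense and 35.4% of the protein-coding genes, a difference that was not tested. It varied little with the width of the segment, from 43.5% at 10 kb or more to 48.8% at 5 to under 10 kb. By contrast 256 genes (17.1%) were silent in wild type and at 1 CPM or more in both βEedKO libraries of 25 weeks, and 164 of these were called. The shares of silent genes were not counted over all genes. By mean level, 51.6% of all counted genes with a state reached 1 CPM in wild type and 56.5% in βEedKO at 25 weeks. For state M these were 22.8% and 47.5%.

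Several silent genes lay in the widest segments. In the segment of 60.6 kb, Gm14424 had no wild-type read and 0.0748 and 0.696 CPM in βEedKO at 25 weeks, and Gm14426 had none and 0 and 0.116 CPM. From the same segment Hoxd3 had 1.65 and 3.29 CPM, against at most 0.0777 in wild type at that age. Hotair, a long non-coding RNA of the Hoxc cluster, had no wild-type read and 0.898 and 0.928 CPM at 25 weeks, and Evx2, a homeobox gene beside the Hoxd cluster, none and 0.973 and 0.889 CPM. Both sit just under the limit of 1 CPM, in βEedKO alone, and did not pass the test (adjusted p = 0.168 and 0.107). Of 358 broad segments with a counted start, 101 held a gene called higher and in 151 every counted gene was silent in both genotypes.

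The named state M genes with the highest levels in wild type belong to islet and pancreas cells other than β cells. At 8 weeks they were Gcg (glucagon, α cells, 11400 to 30500 CPM), the acinar enzyme Cela1 (3720 to 30400), Sst (somatostatin, δ cells, 2090 to 2120) and Pyy (peptide YY, 710 to 891). At 25 weeks βEedKO held 11700 and 10900 CPM of Gcg against 7720 to 8950 in wild type, 1150 and 1250 CPM of Sst against 1110 to 2030, and 606 and 1200 CPM of Pyy against 393 to 818. Cela1 had 45000 and 1150 CPM in βEedKO, on both sides of the wild-type range of 3380 to 23700. None of the 4 passed the test (adjusted p = 0.464 to 0.776, edgeR). Cela1 moved with the summed acinar markers, which were 290000 CPM in βEedKO replicate 2 and 9160 CPM in replicate 3.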

How the data were processed

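Bulk RNA-seq of whole mouse islets (16 libraries in 6 groups) was analysed with a chromatin segmentation of wild-type islets. Gene-level read counts, not normalized, were deposited by the authors, who aligned with TopHat2 2.0.13 to GRCm38 and counted over Gencode M9 models with featureCounts; whether strand was used is not given in the sources used here. They deposited the segmentation as EpicSeg state letters in bins of 200 bp, an input other than a measured level. No count column was left unused (0). The other assays of the series were not analysed here. The members and gene lists were chosen with earlier results of these data known.

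The start of a gene was the most upstream start of its basic transcripts in Gencode M21, a later release of the same build, and 48 of 28929 genes had no state there. The study's model has more states than the 24 letters used here. In 1787 stretches without a segment, 69 of them beside state M, the chromatin was not analysed here. Sequences came from the RefSeq copy of GRCm38. The software was edgeR 4.0.16 under R 4.3.3, and DESeq2 1.42.0 as an alternative. TMM factors and filterByExpr by group left 18685 genes in the fit of 11 wild-type and βEedKO libraries and 18828 in that of all 16, with a common biological coefficient of variation of 0.456. Genes with an adjusted p under 0.05 were called. The SE of a log2 fold change is its size divided by the root of the F statistic. A floor is 3 reads over the wild-type libraries of an age. Alternatives in scaling, filter, test, block, control, libraries and the definition of a state M gene were run. The scripts were tested on simulated counts.

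Named genes were, per age, the 10 largest log2 fold changes among genes called higher with at least 1 CPM in βEedKO and no overlap of libraries. Named too were all called lower, those in the widest segments, the widest silent ones and the 5 highest in wild type. Per family, up to 4 called members were named (2 with the highest level where none was called). Some genes that fit these criteria, and a sequence, are not reported here. At each age, same-numbered libraries shared their deviations from the means of their groups (correlation 0.460 and 0.166 for replicates 1 and 4 at 8 weeks, 0.177 and 0.257 for 2 and 3 at 25 weeks), so the blocked fit treats the numbers as pairs. The labels do not say that they mark litters or days. No partner exists for replicates 3 (wild type) and 5 (βEedKO) at 8 weeks or for replicate 4 (wild type) at 25 weeks. The knockout effect in the blocked fit thus rests on the pairs above, and few libraries are left to set its spread. The chi-square per degree of freedom between libraries of a group was 31.03 to 591.6, so none was deposited again under another number. The labels do not give separate animals for each library of every group, and p-values measure the spread between these libraries.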

Additional observations from a re-analysis of the deposited data

Results flagged for a closer look

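The effect of the knockout differed between the ages for 3 state M genes, each by the interaction test in edgeR. Barhl1 was higher in βEedKO at 8 weeks (12.4, 6.10 and 6.80 CPM against 0.741, 0.178 and 0.704 in wild type) and not at 25 weeks (2.69 and 4.49 against 7.04, 9.07 and 8.23 CPM), a difference in log2 fold change of -5.12 ± 0.77 SE (adjusted p = 0.0348). The wild-type libraries themselves stood apart between the ages. Gata2, a factor of blood and endothelial cells, had 3.25 to 4.06 CPM in βEedKO and 2.47 to 4.39 in wild type at 8 weeks, and 40.9 and 48.7 against 2.72 to 3.74 CPM at 25 weeks (difference 3.77 ± 0.40 SE, adjusted p = 0.00579). Gpr153, an orphan receptor in a segment of 29.2 kb, had 1.5 to 2.29 and 1.30 to 1.78 CPM at 8 weeks, and 35.0 and 37.2 against 0.440 to 1.60 CPM at 25 weeks (difference 4.90 ± 0.56 SE, adjusted p = 0.00579). With the block the adjusted p was 0.124 for Barhl1 and 0.174 for both others. Age and the set of animals cannot be told apart.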

How the results depend on the processing

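With RLE scaling the 225 and 24 genes called higher in βEedKO at 25 and 8 weeks were all called again. Library size alone gave 226 and 22, but moved the median log2 fold change of all genes at 25 weeks from 0.03 to 0.27. The replicate block gave 115 and 0, and with library size alone 335 and 71 were called. Pooling wild-type and heterozygous libraries as control gave 374 and 83, DESeq2 78 at 8 weeks and no filter 43 at 8 weeks. With an M bin anywhere within 1 kb of the start, 546 and 66 genes were called. Without 1 library the counts ran from 87 to 262 and from 6 to 38. The 1 gene called lower at 25 weeks became 0 with library size alone or with the state of the gene body, 2 with DESeq2, with the pooled control and with the block and library size alone, 3 with the block, 6 with an M bin within 1 kb, and 0 to 2 without 1 library. The 3 genes that differed between the ages became 1 with library size alone, 51 with DESeq2, 16 with no filter, 0 with the block, 38 with the block and library size alone, 28 with the pooled control, and 1 to 6 without 1 library. In the heterozygous libraries DESeq2 called 16 state M genes at 8 weeks, with no count over all genes beside it. The block changed neither count of 0. Broad segments fell from 1075 to 284 at a limit of 10 kb. Without βEedKO replicate 2 at 25 weeks the log2 fold change of Cela1 turned to -3.47 (1.81 without replicate 3), neither of which passed the test. Counts of silent genes, with a library left out as an alternative chosen after seeing the data, stayed within 1.5 times. Of 73 calls for named genes, 26 held under all 18 alternatives. The cause of these changes was not tested. With 2 βEedKO libraries at 25 weeks and 648 genes short of reads, a gene not called is not shown to be unchanged.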

Other observations

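Ucp1, the uncoupling protein of brown fat, starts in state M. It had 46.7 CPM in wild-type replicate 3 at 8 weeks and 35.0 and 37.1 CPM in wild-type replicates 3 and 4 at 25 weeks, and at most 0.433 CPM in the other 8 wild-type and βEedKO libraries. Saa3, an acute-phase protein, had 24.4 and 394 CPM in βEedKO replicates 4 and 5 at 8 weeks and at most 4.71 CPM in the other 9 of these libraries. Neither gene was called, although with the block Ucp1 was lower in βEedKO at 25 weeks (adjusted p = 0.0410, edgeR), and both were chosen after their values were seen.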
